A study of Rattus norvegicus with 20 samples.

Results

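The cytosolic ribosomal protein genes are described here: 74 genes of the 35561 that the arrays name, 44 named for the large ribosomal subunit (Rpl, with the stalk proteins Rplp1 and Rplp2) and 30 for the small subunit (Rps). A gene was taken by its name on the array, Rpl or Rps followed by a digit, or Rplp; a suffix marking a predicted gene was dropped, and the S6 kinases (Rps6k) were left out because they are enzymes and not ribosomal proteins. The members have 110 probes in all, 50 genes with 1 probe and 24 with several, and the brightest probe stood for each gene. Every member gave a signal well above background on each of the 20 arrays, and all 74 were tested. Of the 74 names, 73 are current symbols in the RefSeq annotation, and Rpl10l is there only as a synonym.

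The study exposed primary heart cell cultures of newborn rats, grown for a day before treatment, to celecoxib, an inhibitor of cyclo-oxygenase 2. Total RNA was hybridised to single-colour arrays: 2 arrays from untreated cultures and 3 from each of 6 celecoxib groups, exposed for 6 h or 24 h to a reference concentration (1) or to 1/5 or 1/25 of it. The labels give no rat strain, no absolute concentration, and no time or vehicle for the untreated cultures, so both time points are set against the same 2 untreated arrays. Nothing in them states that replicate arrays came from different cultures. The p-values therefore reflect only how far these arrays scattered, and that scatter may be technical.

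Ribosomal proteins and ribosomal RNA form the small subunit, which decodes the message, and the large subunit, which makes the peptide bond. Cells make the proteins in matched amounts, and their messages share a pyrimidine tract at the start (the TOP motif) through which growth signals of the mTORC1 pathway control translation. A few have muscle-restricted or duplicate forms, among them Rpl3l, the form of Rpl3 found in heart and skeletal muscle.

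The probes decide what can be read for these genes, so those on which the results turn are shown first, in lower case and 5′ to 3′, with the positions of the rat build rn3 that the array design gives. Rpl5, which carries 5S ribosomal RNA into the large subunit, has 3 probes whose signals disagree. On the minus strand, probe A (the brightest) was designed to chr14:2400673-2400732, probe B to chr14:2402608-2402753 and probe C to chr14:2401483-2402588. The designed span of B and C is longer than the 60 bases of the probe, so each spans an exon junction.
Rpl5 probe A: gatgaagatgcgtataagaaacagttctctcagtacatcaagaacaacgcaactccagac
Rpl5 probe B: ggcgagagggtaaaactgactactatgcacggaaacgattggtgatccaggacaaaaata
Rpl5 probe C: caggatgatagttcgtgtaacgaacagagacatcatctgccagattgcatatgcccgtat

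Rpl27, a large-subunit protein, shows a bright and a dim probe in 1 gene. The bright probe (chr10:90484455-90484514, plus strand) was saturated on 16 of 20 arrays and the dim one (chr10:90485246-90485305, plus strand) on 0.
Rpl27 bright probe: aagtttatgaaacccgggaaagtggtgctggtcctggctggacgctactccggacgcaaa
Rpl27 dim probe: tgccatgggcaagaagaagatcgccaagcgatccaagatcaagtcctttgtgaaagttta

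Near-copies are the other limit. Rpl10l is an intronless copy of Rpl10, and the probe for Rpl10l (chr6:87933847-87933906, minus strand) overlaps in sequence with the second probe for Rpl10 (chrX:160413361-160413420, minus strand). Over the 41 bases they share, 5 differ, and these are in capitals below. Counted from 1 at the 5′ end of the Rpl10 probe, with the base of Rpl10 first, they are T30C, A36C, T51C, A57G and T60C. The Rpl10 probe was saturated on all 20 arrays and the Rpl10l probe on 0, and whether part of the Rpl10l signal comes from Rpl10 was not tested.
Rpl10: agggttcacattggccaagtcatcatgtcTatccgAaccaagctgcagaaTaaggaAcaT
Rpl10l: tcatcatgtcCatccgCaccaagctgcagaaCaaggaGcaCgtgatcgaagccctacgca

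Rpl3, a protein of the peptidyl transferase region, has a probe that spans an exon junction in the same way (chr7:118351578-118352379, minus strand) and was saturated on no array, which makes it the measured partner of Rpl3l below.
Rpl3: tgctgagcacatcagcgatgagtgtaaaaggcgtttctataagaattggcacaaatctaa

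The RefSeq annotation names 1023 genes as copies or pseudogenes of 72 of the 74 members, and whether the probes pick up signal from these copies was not tested. It lists the transcript that the array gives for the chosen probe for 61 members, and 59 of these carry the member's own name. Those of Rpl36a and Rpl37 are listed under Rpl36al1 and Rpl37l1.

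Levels below are log2 processed signal minus the 75th percentile of the array, so that 0 is the 75th percentile itself. The scanner has an upper limit, and a probe at that limit is called saturated. Of the members, 18 were saturated on all 20 arrays, 41 on some and 15 on none. Those never saturated were Rpl3, Rpl3l, Rpl7, Rpl10l, Rpl27a, Rpl30, Rpl35, Rpl36 and Rpl37a in the large subunit and Rps3a, Rps4x, Rps18, Rps20, Rps25 and Rps28 in the small one. Before scaling, the median log2 signal of the 18 always-saturated members lay between 15.90 and 16.03 on every array, while the 75th percentile of the arrays ranged from 12.91 to 14.10. Their scaled level therefore mirrors the scaling: it was highest (2.99) on the array with the lowest percentile and lowest (1.87) on the array with the highest. For a gene saturated on every array of both groups no fold change is given.

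**Figure D1:**
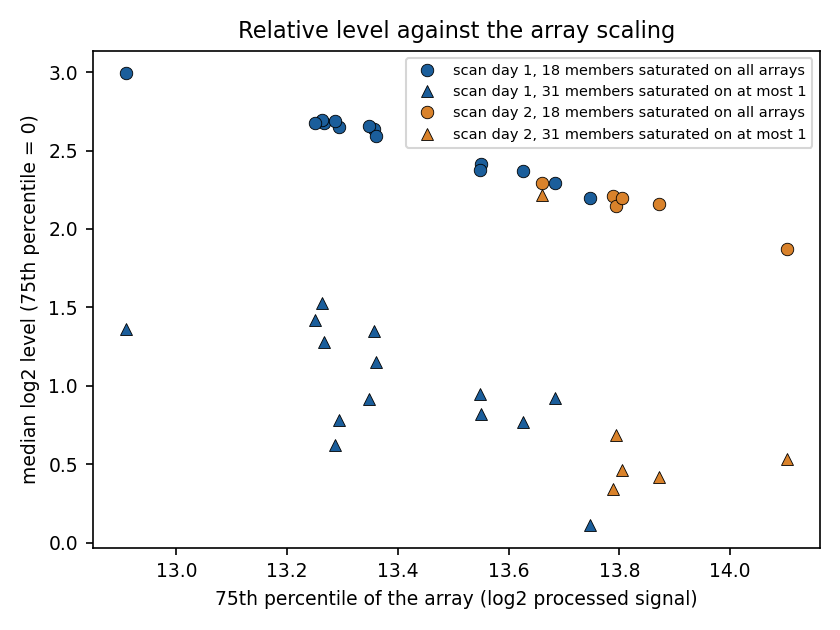
Median scaled log2 level of the 18 members saturated on all arrays (circles) and of the 31 members saturated on at most 1 array (triangles), against the 75th percentile of the array in log2 processed signal, 1 pair of points per array and coloured by scan day. The circles fall along a line from 2.99 to 1.87, and the triangles scatter from 0.11 to 2.22.

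The arrays were scanned on 2 days according to the file headers, on 6 slides, numbered 1 to 6 here. Some groups lie on a single slide. The untreated arrays are on slide 1, those of 1/5 at 6 h on slide 2 and those of 1/25 at 24 h on slide 6. The correlation within slides was 0.35, and the main fit takes the arrays as independent. Scan day 2 held all 3 arrays of concentration 1/5 at 6 h, 1 of concentration 1 at 6 h and 2 of concentration 1/25 at 6 h, and all other arrays were of day 1. Between 63.6% and 83.2% of the probes on an array were well above background and 5.74% to 9.21% were saturated. On 19 arrays 24 to 35 members were saturated. On replicate 3 of concentration 1/25 at 6 h it was 53 of 74 (71.6%), and 16 members were saturated there and nowhere else. The median of the 15 never-saturated members was 1.07 on that array, -1.08 on replicate 1 of concentration 1 at 24 h, and between -0.63 and 0.26 on the other 18. These 2 arrays stand apart, and values of their groups that move by over 1.5 times without them are given both ways below.

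**Figure D2:**
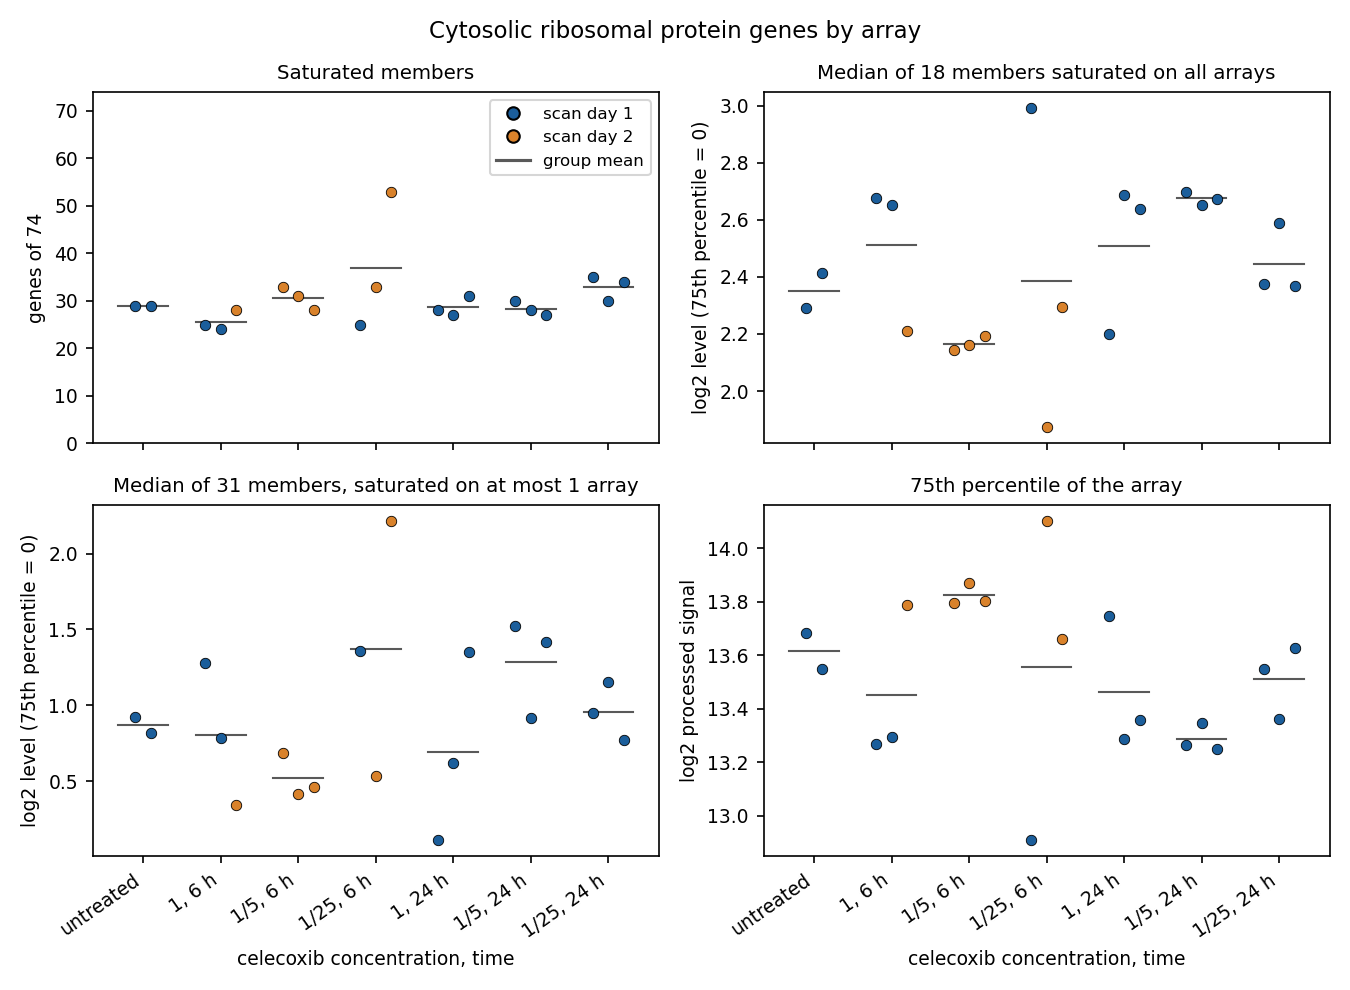
Number of saturated members of 74, median level of the 18 always-saturated members, median level of the 31 members saturated on at most 1 array, and the 75th percentile of each array (log2 units), 1 point per array, grey lines at group means, coloured by scan day. Replicate 3 of concentration 1/25 at 6 h has 53 saturated members against 24 to 35 elsewhere and the highest median of the 31 members (2.22), and the 3 arrays of concentration 1/5 at 6 h lie at the high end of the percentile.

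The array labels name cardiomyocytes. All 10 cardiomyocyte markers, such as Myh6, Tnnt2 and Actc1, stood well above background throughout, and of 6 fibroblast markers, such as Col1a1, 6 did so in each celecoxib group and 5 in the untreated cultures. The smooth muscle markers Myh11, Tagln and Cnn1 and the leukocyte markers Cd68, Ptprc and Cd14 did so on all 20 arrays, and Csf1r on 11. Of endothelial markers Kdr did so on 20, Cdh5 on 12, and Tek and Vwf on 2 each. The erythroid Alas2 did so on 20 and Hbb on 0. With 63.6% to 83.2% of all probes well above background, these markers do not limit the cultures to 2 kinds of cell. In bulk RNA fewer cells of a type cannot be told apart from less RNA per cell.

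At 6 h none of the 74 ribosomal protein genes passed the test against untreated cells at any concentration. The test was limma's moderated test on all 20 arrays with Benjamini-Hochberg adjustment over all genes, and adjusted p below 0.05 counted as called. The share of all genes called was 0.439% at concentration 1, 6.57% at 1/5 and 6.03% at 1/25. The members with an unadjusted p below 0.05 were 1, 3 and 2. Their median difference from untreated was 0.096 at concentration 1, -0.20 at 1/5 and 0.12 at 1/25, beside -0.073, -0.20 and -0.18 for all genes tested. On the log2 scale the standard error of a single member's difference had a median of 0.36.

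The direction of the members at 6 h was mixed at concentration 1, with 47 higher and 27 lower than untreated, and leaned lower at 1/5 (19 higher, 55 lower) and higher at 1/25 (53 and 21). The lean at 1/25 depends on single arrays. Its median was -0.15 without replicate 1, 0.45 without replicate 2 and 0.12 without replicate 3. Without replicate 2, Rpl31 (2.18, adjusted p = 0.0231 by limma) and Rpl35 (1.50, adjusted p = 0.0463) passed among 3 members, a count given without the share of all genes in that fit. Without replicate 3, the array that stands apart, Rpl31 and Rpl35 were at 0.20 and 0.38 in place of 1.20 and 1.05, and 0 members passed. At 1/5, 34 of 74 members were below both untreated arrays on all 3 arrays, against 31.9% of all genes. Of these 34, 9 were among the 22 members saturated on all arrays of both groups and 12 among the 16 saturated on some. Of the 36 members with no saturated array 13 were, which is near the share of all genes. The 75th percentile, which is subtracted, was higher by 0.21 in that group than in untreated. All arrays of that group are of scan day 2 and both untreated arrays of day 1. With scan day as a block in the fit, the median at 1/5 was 0.35. At 1/25 the median was 0.61 with the block and 0.63 on day 1 alone, where the group has 1 array, its replicate 1, the array with the lowest percentile. Large- and small-subunit genes had similar medians, 0.073 and 0.11 at concentration 1, -0.24 and -0.19 at 1/5 and 0.088 and 0.14 at 1/25.

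**Figure D3:**
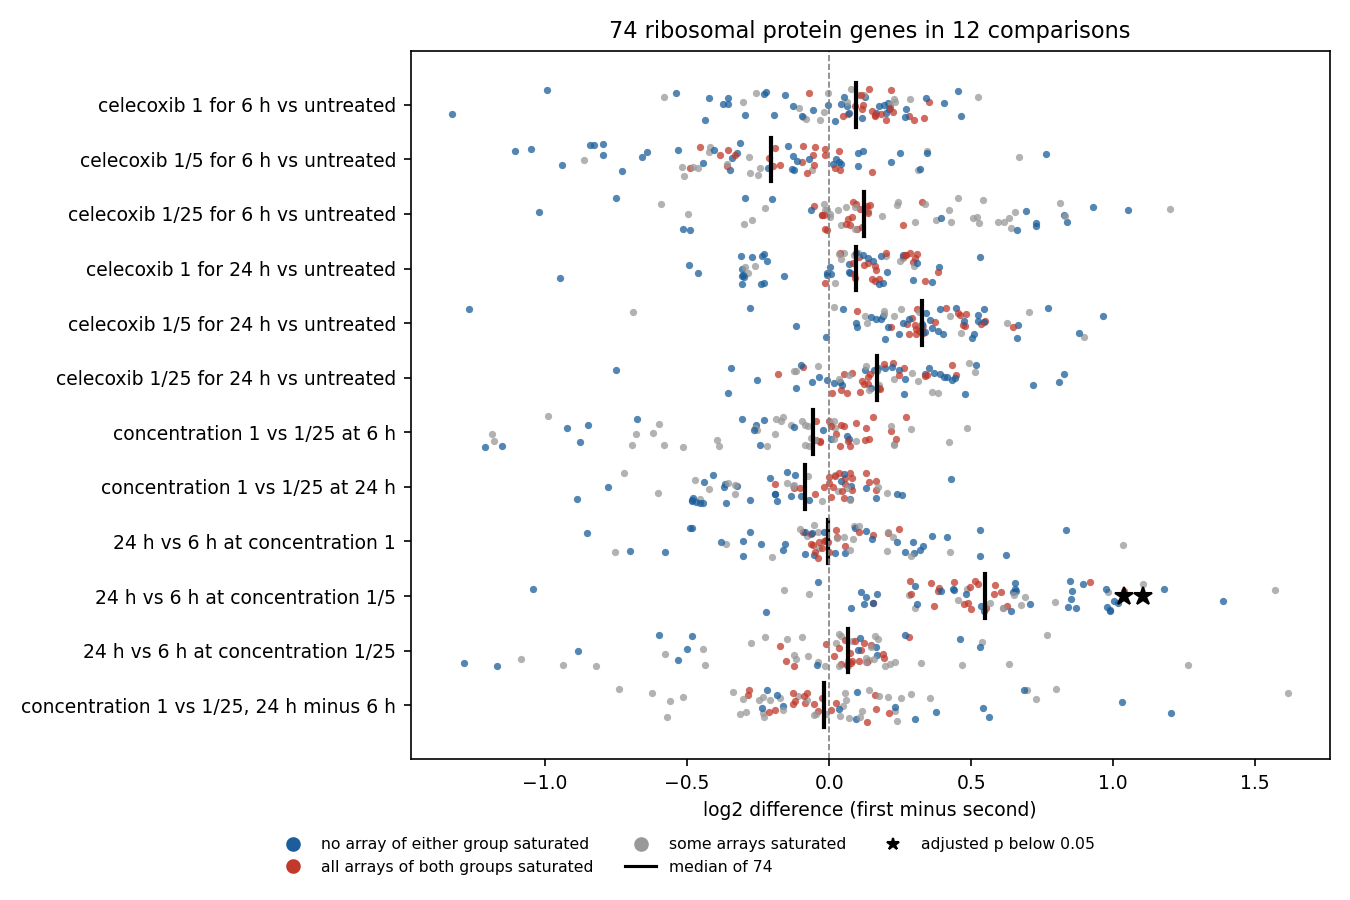
Log2 difference (first group minus second) of each of the 74 members in each of 12 comparisons, with points coloured by saturation, a black bar at the median and a star where the adjusted p is below 0.05. The bars lie between -0.20 and 0.55, and the 2 stars, Rpl17 and Rps26, are in the comparison of 24 h with 6 h at concentration 1/5.

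Rpl3l had the largest negative difference, or one of the 3 largest, against untreated cells at every concentration and time. Its level was -0.60 and -1.87 on the untreated arrays. It was -2.61, -2.48 and -2.59 at concentration 1 for 6 h, -2.37, -2.29 and -2.19 at 1/5, and -2.87, -1.97 and -1.92 at 1/25. All 9 arrays of 6 h were below both untreated arrays. The untreated arrays differ from each other by 1.27, and replicate 2 lies just above the treated ones.

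The difference of Rpl3l from untreated was -1.33 ± 0.37 (SE) at concentration 1, -1.05 ± 0.37 at 1/5 and -1.02 ± 0.37 at 1/25. The adjusted p-values by limma were 0.101, 0.0906 and 0.0886, so none passed. Which untreated array is kept decides the call. Without untreated replicate 2 the differences were -1.96, -1.68 and -1.66 with adjusted p-values of 0.0239, 0.0323 and 0.0243. Without untreated replicate 1 they were -0.69, -0.41 and -0.38 with adjusted p-values of 0.93, 0.667 and 0.758. With scan day as a block, Rpl3l passed at concentration 1 (-1.47, adjusted p = 0.0239) and at 1/25 (-1.31, adjusted p = 0.0481), and at 1/5 it did not (-1.49, adjusted p = 0.107).

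Rpl3, whose product Rpl3l replaces in muscle ribosomes, had smaller differences from untreated, and none passed. It was 0.53 and -0.36 on the untreated arrays, and its means at 6 h were -0.33 ± 0.58, -0.57 ± 0.32 and -0.40 ± 0.47 (SD, n = 3) from concentration 1 to 1/25. The differences from untreated were -0.42, -0.66 and -0.49, and the adjusted p-values by limma were 0.611, 0.348 and 0.462. The untreated array that is high for Rpl3l is also the higher of the pair for Rpl3.

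**Figure D4:**
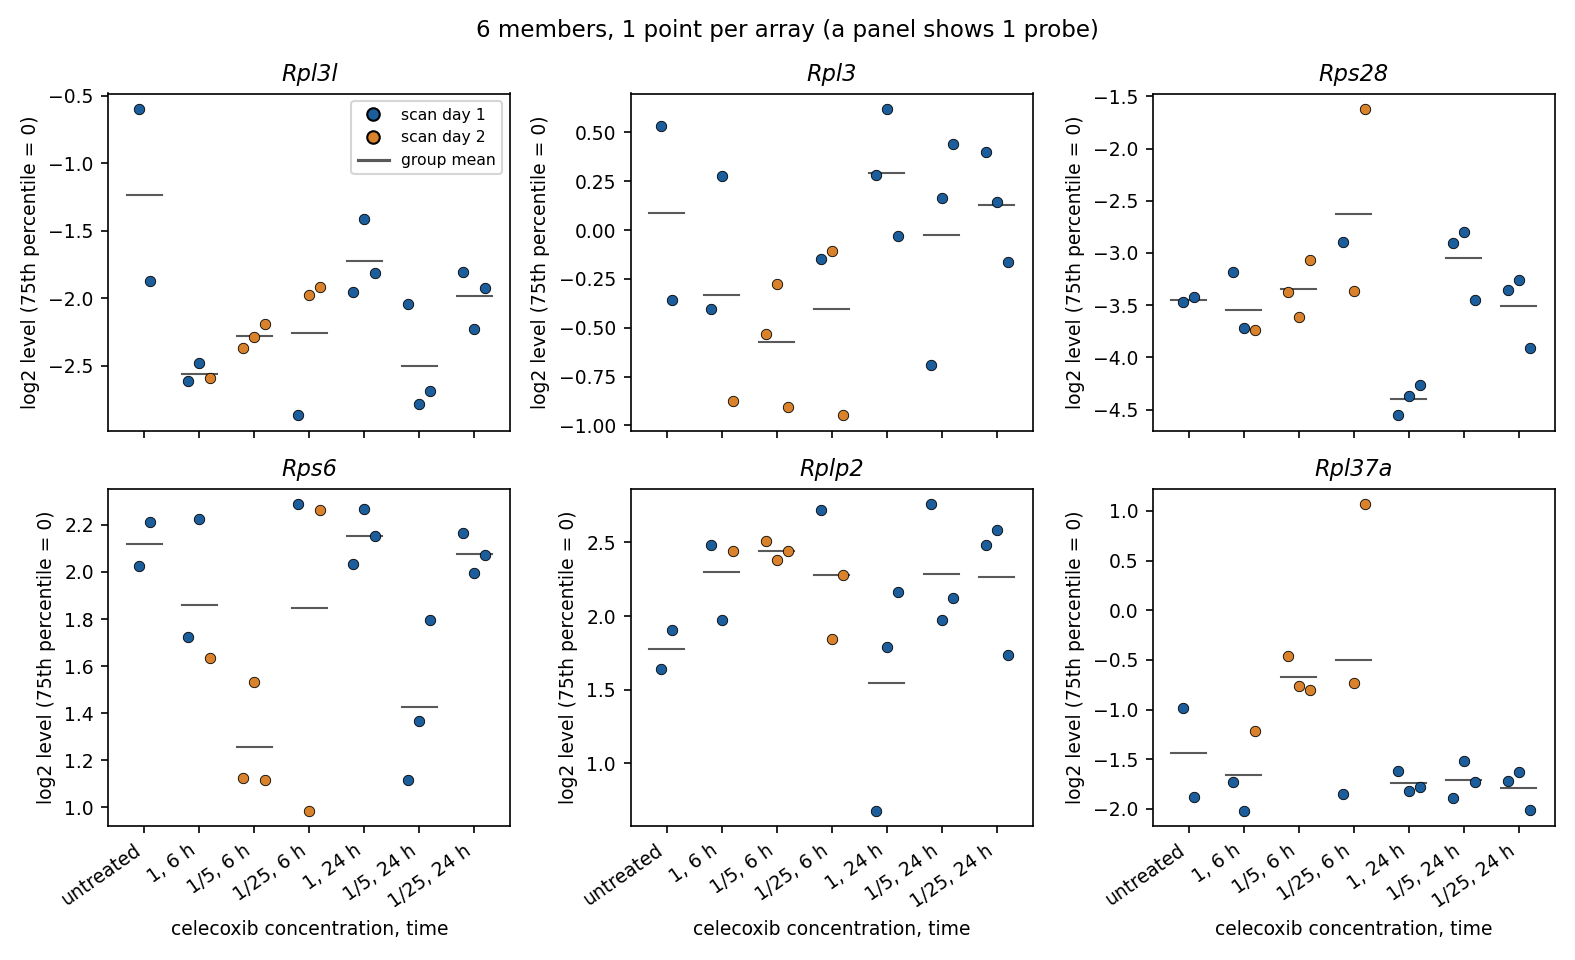
Scaled log2 level of Rpl3l, Rpl3, Rps28, Rps6, Rplp2 and Rpl37a on each array by celecoxib concentration and time, coloured by scan day, with grey lines at group means. The untreated arrays of Rpl3l lie at -0.60 and -1.87 above most treated arrays, Rps28 is lowest in the 3 arrays of concentration 1 at 24 h (-4.56 to -4.27), and Rpl37a is high on the arrays of scan day 2.

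Rpl37a, a zinc-finger protein of the large subunit, had one of the 3 largest positive differences at 1/5 and 1/25, 0.76 and 0.93, with adjusted p-values by limma of 0.408 and 0.268. Its levels followed the scan day. On the 6 arrays of day 2 it was -1.21 at concentration 1, -0.46, -0.76 and -0.80 at 1/5, and -0.73 and 1.07 at 1/25. On day 1 it lay at -2.02 to -1.51 except for untreated replicate 1 (-0.98). With scan day as a block the difference at 1/5 was -0.58 and at 1/25 it was 0.037. Single arrays decide the value at 1/25. Without replicate 3, the array that stands apart, the difference was 0.14 (adjusted p = 0.881 by limma), and without replicate 1 it was 1.60 and passed (adjusted p = 0.0318).

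Rpl5 shows how far the choice of probe reaches. Probe A gave 1.78 and 1.93 on the untreated arrays and means of 0.87 ± 1.08, 0.75 ± 0.67 and 1.11 ± 0.83 (SD, n = 3) at 6 h. The differences from untreated were -0.99, -1.11 and -0.75, with adjusted p-values by limma of 0.388, 0.277 and 0.437. Probes B and C, never saturated, gave differences of the opposite sign. They were 0.44 and 0.62 at concentration 1, 0.37 and 0.30 at 1/5, and 1.01 and 1.18 at 1/25 (0.26 and 0.56 without replicate 3). On replicate 3 of concentration 1/25 probe B read 2.14 and probe C 1.02, the highest of the 20 arrays for each, while probe A read 0.45. Of 23 members with several kept probes, 13 had probes of opposite sign at concentration 1, 13 at 1/5 and 7 at 1/25.

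**Figure D5:**
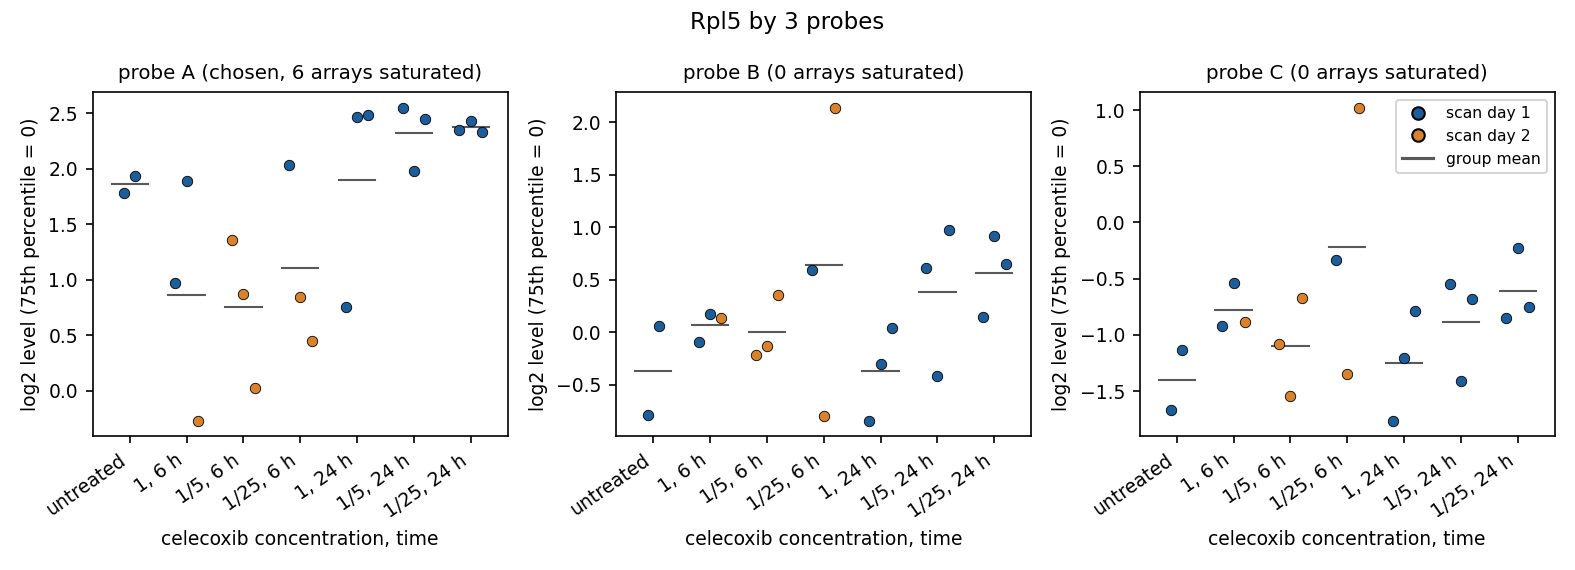
Scaled log2 level of 3 coding-sequence probes of Rpl5 on each array by celecoxib concentration and time, coloured by scan day, with grey lines at group means. Probe A has a mean of 1.86 in untreated cells and of 0.75 to 1.11 at 6 h, while the means of probes B and C at 6 h are 0.30 to 1.18 above untreated.

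At 24 h again no member passed against untreated cells. The share of all genes called was 0.0648% at concentration 1, 0.285% at 1/5 and 0.288% at 1/25, and 1, 2 and 0 members had an unadjusted p below 0.05. The median difference of the members was 0.093, 0.33 and 0.17, beside 0.0034, -0.026 and -0.037 for all genes. Without replicate 1 of concentration 1, which stands apart, the first was 0.29. At 1/5, 69 of 74 members were higher than untreated, and 45 were above both untreated arrays on all 3 arrays, against 20.9% of all genes. Of these 45, 20 were among the 22 members saturated on all arrays of both groups, whose median difference (0.33) mirrors the lower 75th percentile of that group (-0.33). Among the 37 members with no saturated array, 33 were higher, 14 lay above both untreated arrays and the median was 0.34. At 1/25, 60 of 74 were higher and 30 were above both untreated arrays, against 14.3% of all genes. Of these 30, 10 were among the 23 members saturated on all arrays of both groups and 9 among the 16 saturated on some. The median of those 23 was 0.14, and the 75th percentile of the group differed from untreated by -0.11. Of the 35 members with no saturated array 11 were above, and their median was 0.20. The largest differences at 1/25 were for Rpl7 (0.83), Rpl39 (0.81) and Rps13 (0.72). The 3 concentrations share the same untreated arrays.

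The members with the largest values at 24 h and 1/5 were Rpl7 (0.96), Rps2 (0.90) and Rps3a (0.88) on the upper side and Rpl3l (-1.27) on the lower. The adjusted p-values by limma were 0.432, 0.312, 0.383 and 0.146. Another probe of Rps2, saturated on no array, had a difference of the opposite sign. It was 0.50 and -0.26 on the untreated arrays and 0.14, -0.59 and -0.42 at 1/5 for 24 h. Rpl3l was -2.04, -2.78 and -2.68 at 1/5 for 24 h, all below both untreated arrays. At concentration 1 it was -1.95, -1.41 and -1.82, overlapping with untreated (difference -0.49, adjusted p = 0.704 by limma), and at 1/25 it was -1.81, -2.22 and -1.92 (difference -0.75, adjusted p = 0.463). Over both times, 15 of 18 celecoxib arrays were below both untreated arrays for this gene. Without untreated replicate 1 the difference at concentration 1 for 24 h was 0.14.

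Rps6, the small-subunit protein that S6 kinases phosphorylate, was below both untreated arrays on all 6 arrays of concentration 1/5. It was 2.02 and 2.21 on the untreated arrays, where its probe was saturated. It was 1.12, 1.53 and 1.11 at 1/5 for 6 h, and 1.11, 1.37 and 1.80 at 1/5 for 24 h. Low values also occurred elsewhere at 6 h. It was 1.73, 2.23 and 1.63 at concentration 1 and 2.29, 0.98 and 2.26 at 1/25, so that the lowest of all arrays was replicate 2 of 1/25. In all, 10 of 18 celecoxib arrays were below both untreated ones. At 24 h the other concentrations lay at 2.03, 2.27 and 2.15 (concentration 1) and 2.17, 1.99 and 2.07 (1/25), all above the 3 arrays of 1/5. Because the untreated signal was at the scanner's limit the fold is a bound for that limit only, and not for the scatter of the arrays or the scan day. In the main fit Rps6 was at least 1.82-fold lower than untreated at 1/5 for 6 h (adjusted p = 0.142 by limma) and at least 1.62-fold lower at 1/5 for 24 h (adjusted p = 0.382), and neither passed. With scan day as a block the log2 difference at 6 h was -0.36, which is less than 1.82-fold.

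Rps28, a small protein of the small subunit, had its lowest levels on the arrays of concentration 1 for 24 h. It was -4.56, -4.37 and -4.27 there, against -3.47 and -3.43 in untreated cells. It was -3.36, -3.26 and -3.91 at 1/25 for 24 h and -3.18, -3.72 and -3.74 at concentration 1 for 6 h. The 3 arrays of concentration 1 for 24 h lie below every other array of the study. The difference was -0.95 ± 0.40 (SE) from untreated (adjusted p = 0.391 by limma), -0.89 ± 0.36 from 1/25 at 24 h (adjusted p = 1.000) and -0.85 ± 0.36 from 6 h (adjusted p = 0.432). It passed in none of them. All arrays of 24 h and the untreated ones are of scan day 1, but the groups compared share no slide. The arrays of concentration 1 for 24 h are on slides 3 and 5, the untreated ones on slide 1. Those of 1/25 for 24 h are on slide 6, and those of concentration 1 for 6 h on slides 1 and 2.

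The effect of concentration was asked by setting 1 against 1/25 within each time. No member was called at 6 h or 24 h, and no gene of the 27780 and 27774 tested was (0% of all genes in both). Unadjusted p below 0.05 was reached by 4 members at 6 h and 2 at 24 h. The median difference was -0.058 at 6 h and -0.086 at 24 h, beside 0.064 and 0.023 for all genes. The sign at 6 h turned with single arrays of 1/25, with a median of 0.20 without replicate 1, -0.30 without replicate 2 and -0.041 without replicate 3. At 6 h the lowest values were of Rpl30 (-1.21), Rps7 (-1.19) and Rpl31 (-1.18), each of which had its highest level of all arrays on replicate 3 of 1/25. Without that array they were -0.25, -0.48 and -0.18. Rpl30, a large-subunit protein that also binds its own message in yeast, was 1.97 on that array and -0.37 and -1.50 on the other 2 of the group, beside -0.78, -1.59 and -1.16 at concentration 1. At 24 h the lowest were Rps28, Rps12 (-0.78) and the stalk protein Rplp2 (-0.72), each with an adjusted p of 1.000 by limma. Without replicate 1 of concentration 1, which stands apart, these were -0.81, -0.51 and -0.29. Without the 2 arrays that stand apart the median at 24 h was 0.14, with 54 of 74 members positive in place of 31.

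Whether the effect of concentration differed between the times was tested as an interaction. No member and no gene was called (0% of all genes), and 0 members had an unadjusted p below 0.05. The median over the members was -0.017, and the extremes were Rps7 (1.62) and Rplp2 (-0.74). Without the 2 arrays that stand apart these were 0.17, 0.90 and -0.31.

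Between 24 h and 6 h the members were called only at concentration 1/5, where 2 of 74 (2.70%) passed the test with higher scaled levels at 24 h, against 4.75% of all genes in either direction and 1.7% higher. They were Rpl17, a large-subunit protein near the exit tunnel, and Rps26, a small-subunit protein at the messenger exit. Rpl17 was 1.90, 1.82 and 1.77 at 6 h and 2.94, 2.92 and 2.75 at 24 h, a difference of 1.04 ± 0.28 (adjusted p = 0.0466 by limma). Its probe was saturated on all 20 arrays, so no fold is given, and the difference is one of scaled values at the scanner's limit. Rps26 was 1.91, 1.74 and 1.71 at 6 h and 2.96, 3.00 and 2.72 at 24 h, a difference of 1.11 ± 0.29 (adjusted p = 0.0440 by limma). Its probe was saturated on 19 arrays, among them 2 of the 3 at 6 h and all 3 at 24 h, so no fold or bound is given. In both genes the groups do not overlap, and the difference in the 75th percentile between the groups (-0.54) enters both values. A rise in RNA is therefore not shown by either of these probes. Another probe of Rpl17, saturated on no array, was 0.27, 0.22 and -0.12 at 6 h and 1.00, 0.85 and 1.06 at 24 h. It was thus also higher at 24 h without overlap, but did not pass in the fit on unsaturated probes. The scan day differs between these groups as well, as given below.

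Most other members were also higher at 24 h without passing. The median difference was 0.55 beside 0.081 for all genes, 69 of 74 were positive, and 56 were higher without overlap (27.9% of all genes). Of these 56, 20 were among the 21 members saturated on all arrays of both groups and 13 among the 16 saturated on some. Of the 37 members with no saturated array 23 were. An unadjusted p below 0.05 was reached by 28 members, and the share of all genes for this is not given here. The largest differences were of Rpl5 by probe A (1.57, adjusted p = 0.0852 by limma), Rpl21 (1.39, adjusted p = 0.102) and Rpl10a (1.18, adjusted p = 0.161). Rpl37a was lower (-1.04, adjusted p = 0.182). The 21 members saturated throughout both groups had a median of 0.49, while the 75th percentile of the arrays was lower at 24 h by 0.54 (-0.54). The 37 members with no saturated array had a median of 0.65, and 34 of them were positive.

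In this comparison all 6 h arrays are of scan day 2 and all 24 h arrays of day 1. With scan day as a block, whose effect is then estimated from the other groups at 6 h, the median was -0.0079, 36 of 74 members were positive and 0 were called; Rpl17 was 0.23 and Rps26 0.30. Without any 1 of the 6 arrays 0 members were called as well, and with the 6 arrays fitted alone 41 were, beside 30.8% of all genes. Markers of cardiomyocytes and fibroblasts were also higher. All 10 cardiomyocyte markers were higher at 24 h, with a median of 0.62, of which Myh6 passed (2.81, adjusted p = 0.0442 by limma, saturated on some arrays), and 5 of 6 fibroblast markers were higher, with a median of 0.55. Other marker lists were mixed. Higher were 2 of 3 smooth muscle markers (median 0.27), 1 of 2 endothelial (0.23) and 3 of 4 macrophage and leukocyte markers (0.087). The 1 erythroid marker tested was lower (-0.40). The mean level of the 10 cardiomyocyte markers ranged from 0.72 to 0.98 on the 6 h arrays and from 1.62 to 1.87 on those of 24 h. Their part in the result was not tested.

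At the other concentrations 0 members were called between the times, with 0.18% of all genes called at concentration 1 and 2.41% at 1/25. An unadjusted p below 0.05 was reached by 2 and 7 members. The medians were -0.0029 and 0.067, beside 0.034 and 0.11 for all genes. At concentration 1 the extremes were Rpl5 by probe A (1.03), Rpl3l (0.83), Rpl3 (0.62), Rps28, Rplp2 (-0.76) and Rps20 (-0.70). Without replicate 1 at 24 h, which stands apart, the median was 0.25, and Rpl5 was 1.61, Rplp2 -0.32 and Rps20 -0.51. At 1/25 they were Rpl5 by probe A (1.26), Rpl4 (0.77), Rpl35a (0.63), Rpl37a (-1.29), Rpl35 (-1.17) and Rps7 (-1.08). Without replicate 3 at 6 h, which stands apart, the last 3 were -0.50, -0.49 and -0.37 and Rpl4 was 0.36. Without replicate 1 at 6 h 4 members passed, among them Rpl37a (-1.96, adjusted p = 0.00831 by limma) and Rpl4 (1.04, adjusted p = 0.0313). The share of all genes called in that fit is not given here, so the count is no result about the members. The median was 0.30 without replicate 1, -0.22 without replicate 2 and 0.083 without replicate 3. The scan-day block moved the median at 1/25 to -0.43, with 9 of 74 members positive in place of 47. On day 1 alone, where 1 array of 6 h stands against 3 of 24 h, the median was -0.46.

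Rpl5 also differed by probe over time. Against the 1.03, 1.57 and 1.26 of probe A from concentration 1 to 1/25, probe B gave -0.44, 0.39 and -0.077 and probe C -0.47, 0.22 and -0.39. Rpl27 disagreed in the comparison of concentration at 6 h, where its bright probe gave 0.29 and its dim one -0.60. The bright probe was at its limit on 6 of the 9 arrays of 6 h and on 8 of the 9 of 24 h.

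None of the members named for their roles passed in any comparison. Rplp1 and Rplp2 form the stalk that recruits elongation factors. Rplp1 was saturated on all 20 arrays. Rplp2 was 1.64 and 1.91 in untreated cells and higher by 0.53, 0.67 and 0.51 at 6 h from concentration 1 to 1/25, with adjusted p-values by limma of 0.5, 0.325 and 0.429. Of the 9 arrays of 6 h, 8 were above both untreated arrays. At 24 h it was 0.68, 1.79 and 2.16 at concentration 1, the first on the array that stands apart.

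Rpl11, which with Rpl5 binds the p53 regulator Mdm2, was saturated on 8 arrays, and its largest difference was 0.98 between the times at 1/5 (adjusted p = 0.12 by limma). Rps19, a small-subunit protein mutated in Diamond-Blackfan anaemia, was saturated on 8 arrays and ranged from -0.57 to 0.65 over the 12 comparisons. Rpl10l, the copy of Rpl10 known from testis, was 0.49 and -0.13 in untreated cells and had a mean of -0.76 ± 0.25 (SD, n = 3) at 1/5 for 6 h, a difference of -0.94 (adjusted p = 0.167 by limma), which was 0.14 with scan day as a block. Rps4x, the X-linked form of Rps4, was never saturated and differed from untreated by -0.40 to 0.14. Rplp0, Rps27l, Rpl22l1, Rpl7l1, Rpl39l and Rps4y2 were not analysed here.

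The spread between replicates differed widely among the members. The pooled SD within groups was smallest for Rps9 (0.15), Rpl22 (0.19) and Rpl34 (0.20), which were saturated on 8, 5 and 12 arrays, and largest for Rpl31 (0.89), Rpl30 (0.76) and Rpl23a (0.74). The latter are large-subunit proteins, Rpl23a and Rpl31 at the exit of the peptide tunnel. On replicate 3 of concentration 1/25 at 6 h Rpl31 was 2.22 and Rpl23a 2.30, against 0.18 and -1.73, and 0.33 and -0.97, on the other 2 arrays of the group. The median SD was 0.31 over the 18 always-saturated members and 0.47 over the 15 never saturated. Of the members with no saturated array in either group, the 95% confidence interval of the difference from untreated lay within 1 on the log2 scale for 7 of 36 at concentration 1 for 6 h, 8 of 36 at 1/5 and 2 of 16 at 1/25. At 24 h it did so for 10 of 37, 8 of 37 and 8 of 35. For the rest a change of that size, which is a doubling or halving, was not excluded at this number of arrays.

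Other genes of the translation apparatus gave few calls. Of 11 translation factors with TOP messages, 1 was called between the times at 1/5, Eif4b (1.04, adjusted p = 0.0470 by limma), and 0 elsewhere. Its probe was saturated on every array of both groups, so that this value too carries the difference in scaling and shows no rise. Their median there was 0.56. None of 14 genes of ribosome biogenesis and RNA polymerase I, and none of the 4 ribosomal proteins whose names fall outside the rule (such as Rpsa and Fau), was called in any comparison. Of 12 genes of mTORC1 and the S6 kinases, 1 was called at 1/5 for 6 h, beside 6.57% of all genes. It was Tsc1, an inhibitor of mTORC1, lower than untreated (-1.21, adjusted p = 0.0496 by limma). Between the times at 1/5 1 was called, beside 4.75% of all genes. It was Eif4ebp2, a repressor of cap-dependent translation, lower at 24 h (-2.09, adjusted p = 0.0260 by limma). In both comparisons the 6 h arrays of 1/5 are of scan day 2 and the others of day 1, so scan day cannot be told apart.

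Of 58 mitochondrial ribosomal protein genes tested, which serve the organelle's own ribosome, few were called, all in comparisons with 6 h groups. Every 6 h group holds arrays of scan day 2, and a part of scan day in these calls was not tested. At 1/5 for 6 h Mrpl19 rose (1.69, adjusted p = 0.0256 by limma) and Mrps26 fell (-0.92, adjusted p = 0.0409). Mrps26 also fell at 1/25 for 6 h (-0.95, adjusted p = 0.0404). Between the times at 1/5, Mrpl36 (1.31, adjusted p = 0.0406) and Mrps26 (0.86, adjusted p = 0.0452) rose. The share of all genes called in these comparisons was 6.57%, 6.03% and 4.75%, in the order given. The median of the mitochondrial genes between the times at 1/5 was 0.49, near the 0.55 of the cytosolic genes.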

How the data were processed

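Scanner intensities were deposited by the authors for each array. Per the file headers, the software was Feature Extraction 9.5.3.1 of Agilent. The processed signal, an intensity that the software had already background-corrected, was put on a log2 scale, and the 75th percentile of each array was subtracted. The authors' deposited values are, as found by setting them against the scanner files, a linear ratio of the signal to the array median and to the mean of the untreated arrays; how they were made is not given in the sources used here, and their log2 served as an alternative. Outlier spots were left out, which removed 1 member value, and spots of a probe were averaged. Kept were probes that exceeded background clearly on all arrays of 1 or more groups (27787 of 35561 genes). The brightest probe by mean log2 signal stood for a gene.

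All 20 arrays were fitted with 7 group means in limma 3.58.1 (R 4.3.3), with 13 residual degrees of freedom, in 12 comparisons; p-values were adjusted by Benjamini-Hochberg over all genes. The fit was tested on simulated data. Members and lists were chosen with earlier results of these data known. Named were members fixed by role, members called or with the 3 largest differences each way, those of extreme spread, and those whose probes disagree. Saturated probes compress differences. Other probes, scalings, batches and omitted arrays were alternatives. Other tools were statmod 1.5.0, pandas 2.3.3 and matplotlib 3.10.9. Sequences are those of the array files, and RefSeq names those of the GRCr8 annotation.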

Additional observations from a re-analysis of the deposited data

How the results depend on the processing

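With 2 untreated arrays and 3 per celecoxib group, and with 18 of 74 members at the scanner's limit on every array, only large differences could have passed. Of 250 counts of called members under other settings 223 stayed within 1.5 times the main count, and of 250 medians 237 moved by less than 0.32, the SD of the members' median between replicates. Most main counts were 0, so an unchanged count is mostly 0 again. Most main medians were smaller in size than 0.32, so a change of sign can lie within that margin. These totals are therefore no measure of stability. The causes of the changes below were not tested, except that settings on unsaturated probes hold fewer members (27, or 41 on 19 arrays, a choice made after seeing the data). Leaving out both arrays that stand apart was also chosen after seeing the data. The counts of called members below stand without the share of all genes called under the same setting. They are therefore no result about the members.

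The count between the times at 1/5 was 0 after centring on the median, without the filter, with probes saturated on no array, with scan day as a block, with slide as a random block, with the authors' deposited table and on 19 arrays. It was 4 with normexp, 1 with the mean of all probes and 41 with only the groups compared, and its median was 0.16 after quantile normalization and -0.0079 with scan day as a block. After centring, the median over all genes shifted to 0.26 at concentration 1 and 0.24 at 1/25 for 6 h, where the members were at 0.42 and 0.55 (0.42 and 0.55 in the deposited table). At 1/25 for 6 h the median was 0.49 with unsaturated probes, 0.61 with scan day as a block and 0.63 on day 1, with 2 members called under the block and 1 on day 1. Scan day as a block gave a median of 0.35 at 1/5 for 6 h, -0.43 between the times at 1/25 (-0.46 on day 1), and 1 call at concentration 1 for 6 h; normexp gave 1 call at 1/5 for 6 h.

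Leaving out 1 array in turn gave counts of 0 to 1 for concentration 1 and 1/5 at 6 h and 1/5 at 24 h, 0 to 3 for 1/25 at 6 h, and 0 to 4 between the times at 1/25; at 1/5 between the times it gave 0. At 1/25 for 6 h the median ranged from -0.15 to 0.45. The single call without untreated replicate 2 was Rpl3l; without replicate 1 of 1/25 at 6 h there were 1 and 4 calls, and without its replicate 2 there were 3.

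Single genes changed sign as follows. With unsaturated probes Rps2 was -0.70 at concentration 1 for 6 h and -0.41 at 1/5 for 24 h, Rpl15 -0.21 at 1/5 for 6 h (also on 19 arrays), and Rpl27 -0.60 between concentrations at 6 h (-0.11 on 19 arrays, -0.16 as a mean of probes, -0.14 on day 1). Rpl5 was 0.44, 0.37 and 1.01 at 6 h from 1 to 1/25 (0.44, 0.37 and 0.26 on 19 arrays), -0.44 (both) and -0.077 between the times at 1 and 1/25, 0.022 and 0.48 as a mean of probes at 1 and 1/25, 0.44 and 0.28 with scan day as a block at 1/5 and 1/25, and 0.18 on day 1. Rpl37a was 0.036 at 1/5 for 24 h after centring and 0.038 in the deposited table, ranged from -0.73 to 0.17 at 1/5 and from -0.81 to 0.094 at 1/25 for 24 h when 1 array was left out (highest without untreated replicate 1), -0.58 at 1/5 for 6 h and 0.30 between the times at 1/5 with scan day as a block, and -0.42 and 0.059 on day 1 at 1/25 for 6 h and between its times. With scan day as a block Rpl10l was 0.14 at 1/5 for 6 h, and Rpl21 was -0.037 and Rpl3l 0.22 between the times at 1/5. On day 1 Rps19 was -0.14 and Rps7 0.090 between concentrations at 6 h. When 1 array was left out at concentration 1 for 24 h, Rpl3l ranged from -1.13 to 0.14 (without untreated replicate 1) and Rpl7 from -0.042 (without replicate 3) to 0.92.

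The labels do not say whether the replicate numbers pair the samples. Of 57 pairs with the same number 9 correlated above 0.1, and 7 of 20 arrays were closest to their own number. The median correlation was -0.0027 for pairs with the same number and 6.0e-05 for the others. Slide and scan day differ between the groups, so these correlations cannot settle the pairing. With the replicate block 2 members were called between the times at 1/5 and 0 elsewhere, and the median between the times at 1/5 was 0.55.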
